A study of Homo sapiens with 4 samples.

Results

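The mRNAs of 10 genes of the actin cytoskeleton were followed through an RNA immunoprecipitation sequencing (RIP-seq) experiment: the cytoplasmic actins ACTB and ACTG1, the monomer-binding proteins TMSB4X, TMSB10, PFN1 and CFL1, the ARPC2 and ARPC3 subunits of the Arp2/3 complex, and the filament-binding proteins TPM1 and TAGLN2. They were taken by gene name, as 10 of 13300 gene names and 60 of 34975 listed transcripts, and every one of them was found. The set was chosen on these same data, from the observation that all 5 listed ACTB transcripts were lower by group mean after immunoprecipitation of KIAA1429. Differences between the groups are therefore given for the members as a description, with no test.

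The cells were HCCLM3, an established human hepatocellular carcinoma line. Lysates were incubated with beads carrying an antibody against KIAA1429 (also named VIRMA), a large scaffold subunit of the N6-methyladenosine (m6A) methyltransferase complex, or with beads carrying normal IgG, which shows the RNA recovered without that antibody. There were 2 libraries for KIAA1429 RIP and 2 for IgG RIP, from cells with no other treatment named, and the comparison asks which mRNAs associate with KIAA1429. The labels do not say that the replicates came from separate cultures, so the spread between them may be technical. Values are FPKM, fragment counts scaled to the length of the transcript and to all mapped fragments of the library, and a gene total is the sum over its listed transcripts. FPKM is a share of a library, so how much RNA each antibody recovered cannot be read from it, and a library of the RNA before immunoprecipitation was not used here.

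Actin monomers join into filaments that give a cell its shape and let it crawl. Thymosins hold monomers in reserve, profilin hands them to growing filament ends, cofilin cuts old filaments and frees monomers, and the Arp2/3 complex starts new filaments as branches. Tropomyosins lie along filaments and transgelins bind them, and cells of most tissues make these mRNAs in large amounts.

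The members did not move together. ACTB was lower in both KIAA1429 libraries than in both IgG libraries, 1.81-fold by group mean, while both thymosin mRNAs, PFN1 and ARPC3 were higher in both KIAA1429 libraries, by 1.28-fold for PFN1 to 1.70-fold for TMSB4X. For the other 5 members the groups overlapped, ACTG1 among them although its protein is nearly the same as that of ACTB. By group mean 2 members were lower and 8 were higher. Among all 11361 gene totals with a mean of at least 1 FPKM, 49.4% were lower and 50.6% higher. Among the 436 gene totals with a mean of at least 100 FPKM, the level of every member, 30.0% were lower and 70.0% higher. Groups that did not overlap are called apart below: 1 member was apart and lower and 4 were apart and higher, against 15.2% and 16.6% of all gene totals and 7.34% and 28.2% of those at 100 FPKM or more. Since the set was chosen on this contrast, nothing is read from these shares. The median log2 ratio of KIAA1429 RIP to IgG RIP was 0.24 over the members, 0.01 over all gene totals tested and 0.18 over those at 100 FPKM or more.

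**Figure D1:**
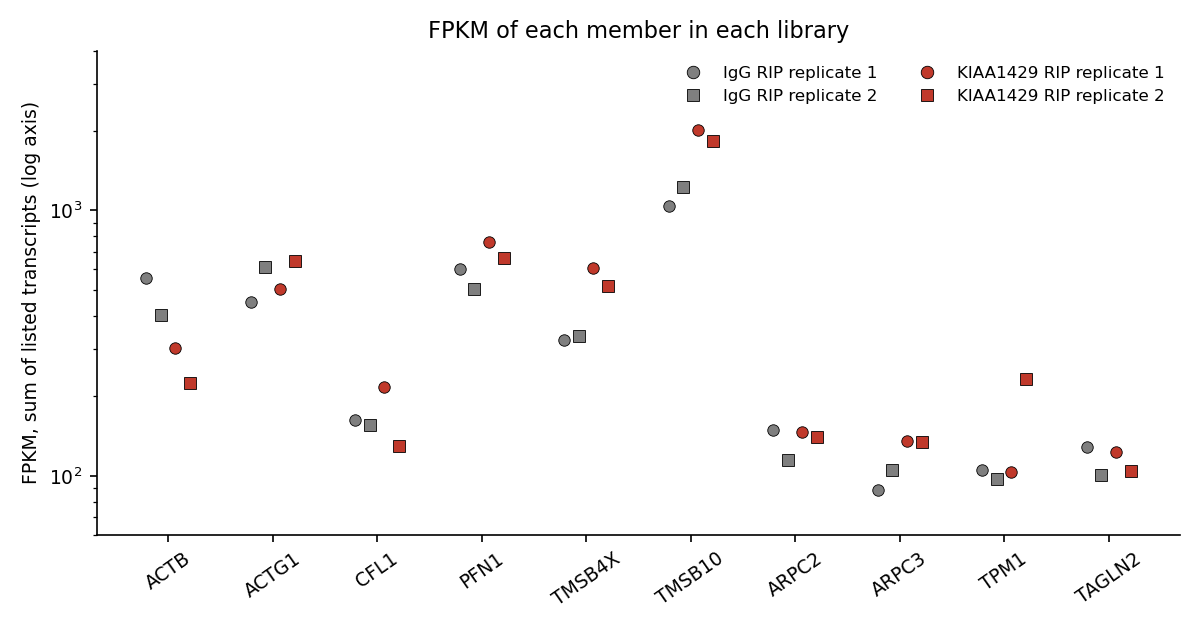
FPKM of each of the 10 members (sum of listed transcripts, log axis) in the 2 IgG RIP libraries (grey) and the 2 KIAA1429 RIP libraries (red); circles are replicate 1 and squares replicate 2. The red points lie below the grey ones for ACTB and above them for PFN1, TMSB4X, TMSB10 and ARPC3, and TPM1 has a single high point in KIAA1429 replicate 2, at 232 FPKM.

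The libraries summed to between 295573 and 340300 FPKM, and between 26.6% and 32.2% of listed transcripts stood at 0 in a library. The members held 1.22% and 1.16% of this sum with IgG and 1.46% and 1.36% with KIAA1429. The sums differed between groups by 0.15 on the log2 scale, higher in KIAA1429 RIP. Of 14 hepatocyte markers 13 were listed. Their means over the 4 libraries ran from 0.692 FPKM for HNF4A to 116 FPKM for AFP, a fetal liver protein often made by liver tumours. AFP stood between 99.1 and 128 FPKM in single libraries, and APOH had a mean of 2.91 FPKM. Of 5 epithelial markers 4 were listed, with means from 2.04 FPKM for EPCAM to 938 FPKM for KRT18. Of the markers of other cell types, 2 of 6 leukocyte, 0 of 4 endothelial and 2 of 6 fibroblast genes were listed, with summed levels of at most 17.5 FPKM. Among these the means of LYZ (14.4 FPKM) and COL3A1 (11.8 FPKM) were like those of the hepatocyte markers TTR (12.6 FPKM) and GPC3 (13.3 FPKM). Across all features limma called 0 of 11361 gene totals and 0 of 23375 transcripts in either direction (adjusted p under 0.05 and a log2 fold change beyond 1), a background of 0%. With an unadjusted p under 0.05 and the same fold, 266 gene totals were higher and 135 lower, and 675 transcripts were higher and 542 lower.

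ACTB, the beta-actin whose mRNA is a common loading control, measured 555 and 403 FPKM in the IgG libraries and 304 and 224 FPKM in the KIAA1429 libraries. The group means were 479 ± 108 and 264 ± 56.4 FPKM (SD, n = 2). Both KIAA1429 values lay below both IgG values. The log2 ratio was -0.86 ± 0.45, where the error combines the SDs of the log2 values of the groups. The gap between the nearest libraries of the groups was 0.41 on the log2 scale, less than the 0.46 between the IgG replicates and the 0.44 between the KIAA1429 replicates. Among gene totals ACTB ranked 43 and 83 by FPKM with IgG and 144 and 179 with KIAA1429.

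Of the 5 listed ACTB transcripts, ACTB-201 held between 90.9% and 94.1% of the gene total in every library. This transcript lies at chr7:5566782-5570340 on the minus strand of GRCh37, the build of the files. It measured 521 and 375 FPKM with IgG against 286 and 204 FPKM with KIAA1429, so the gene total is largely its value. The remaining transcripts stood below 13 FPKM. ACTB-202, ACTB-203 and ACTB-205 were also apart and lower, with log2 ratios of -1.24, -0.72 and -0.68. ACTB-209 was nearest to the limit of the choice, with 5.27 and 5.49 FPKM in IgG RIP, and KIAA1429 RIP gave 3.15 and 5.83 FPKM, a log2 ratio of -0.26 with overlapping groups. Having every listed transcript lower was met by 18 of 755 genes with exactly 5 listed transcripts (2.38%), and having every one higher by 18 as well.

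ACTG1, the gamma-actin, measured 451 and 613 FPKM in the IgG libraries and 504 and 643 FPKM in the KIAA1429 libraries. In each group replicate 1 was the lower library, and the groups overlapped. The group means were 532 ± 114 and 574 ± 98.1 FPKM (SD, n = 2), a log2 ratio of 0.11 ± 0.40. Of its 8 listed transcripts none was apart. ACTG1-201 was the most abundant, with 277 and 350 FPKM with IgG against 293 and 406 FPKM with KIAA1429. ACTG1-216 varied most among its 3 abundant transcripts, from 14.2 FPKM in IgG replicate 1 to 84.0 FPKM in KIAA1429 replicate 1.

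**Figure D2:**
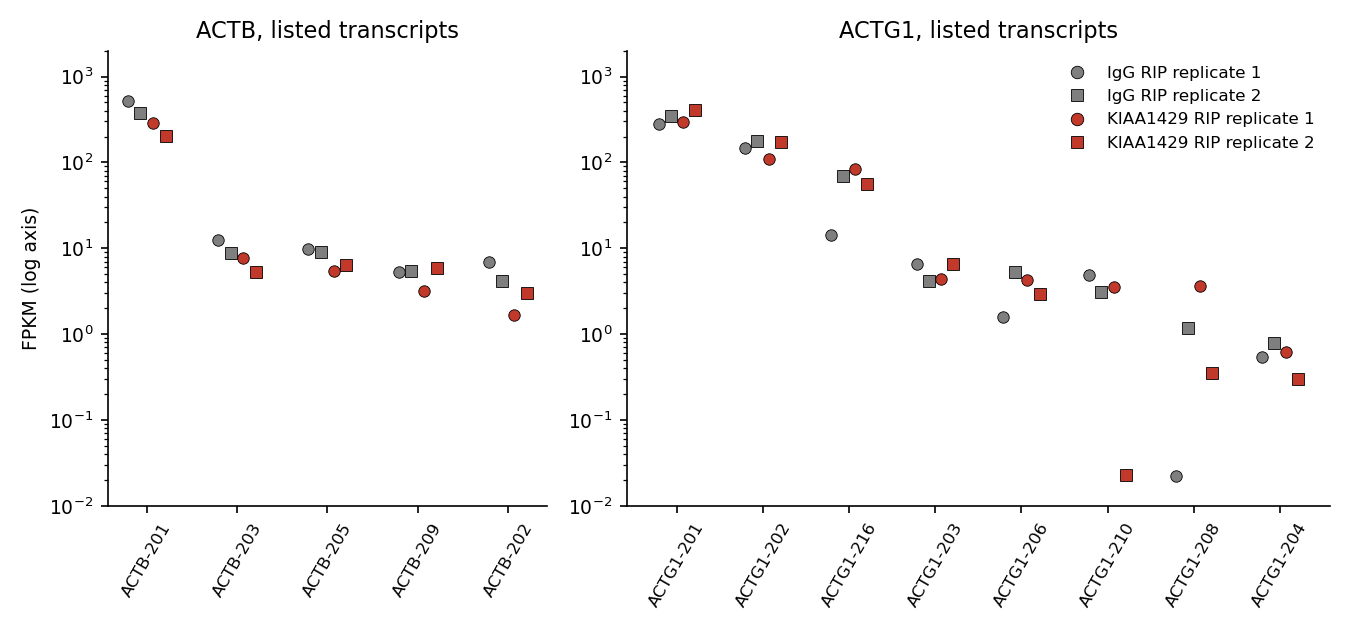
FPKM (log axis) of each listed transcript of ACTB (left) and ACTG1 (right) in the 2 IgG RIP libraries (grey) and the 2 KIAA1429 RIP libraries (red); circles are replicate 1 and squares replicate 2. For ACTB the red points lie below the grey ones except for ACTB-209, whereas the groups overlap for each of the 8 ACTG1 transcripts.

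The coding sequences of these paralogues are alike. Both are 1128 bases long, they differ at 99 bases (91.2% identity), and 94 of these differences are at the third position of a codon, where most changes leave the amino acid as it is. The longest stretch without a difference is 59 bases, and over the 1128 bases only 10 windows of 50 bases occur in both. The first 60 coding bases, from the reference and not from the libraries, are shown because they carry many of these differences, with the bases that differ in capitals.
ACTB: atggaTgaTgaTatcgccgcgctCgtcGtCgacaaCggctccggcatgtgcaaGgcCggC
ACTG1: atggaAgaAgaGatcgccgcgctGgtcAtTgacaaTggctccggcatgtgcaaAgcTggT
The ACTB stretch is the minus strand of chr7:5569229-5569288 and the ACTG1 stretch the minus strand of chr17:79479321-79479380 in GRCh37. How the counting divided reads between paralogues is not given in the sources used here. The sum of both genes, looked at after their values were seen, was 1007 and 1016 FPKM in IgG RIP, and KIAA1429 RIP gave 808 and 867 FPKM, a log2 ratio of -0.27. Replicates of the sum lay closer together than those of either gene, and the groups of the sum were apart. Whether reads of ACTB and ACTG1 were exchanged in the counting was not tested. The ratio of ACTB to ACTG1 within a library, which no scaling between libraries changes, was 1.23 and 0.658 with IgG and 0.603 and 0.349 with KIAA1429. Both KIAA1429 ratios lay below both IgG ratios, with the nearest values close together.

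TMSB10 and TMSB4X encode beta-thymosins, short peptides that hold actin monomers in reserve. Their coding sequences are 135 bases each and differ at 37 bases (72.6% identity), and the longest stretch without a difference is 10 bases. They are shown whole, since these peptides are short and both mRNAs differed between the groups alike, with the differing bases in capitals.
TMSB4X: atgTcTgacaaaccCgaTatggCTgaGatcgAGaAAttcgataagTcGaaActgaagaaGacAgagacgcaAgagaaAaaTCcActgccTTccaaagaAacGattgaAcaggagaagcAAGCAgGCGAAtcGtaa
TMSB10: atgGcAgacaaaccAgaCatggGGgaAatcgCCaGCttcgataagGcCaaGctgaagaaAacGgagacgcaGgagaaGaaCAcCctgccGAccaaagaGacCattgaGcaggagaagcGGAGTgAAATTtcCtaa
The coding exons lie on the plus strand within chrX:12994381-12994930 and chr2:85133142-85133547 of GRCh37, with introns left out.

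TMSB10 was the most abundant member and had 1 listed transcript. It measured 1043 and 1226 FPKM in the IgG libraries and 2019 and 1827 FPKM in the KIAA1429 libraries, means of 1135 ± 129 and 1923 ± 136 FPKM (SD, n = 2). Both KIAA1429 libraries were higher than both IgG libraries, with a log2 ratio of 0.76 ± 0.19 (1.69-fold). TMSB4X measured 325 and 337 FPKM with IgG against 607 and 521 FPKM with KIAA1429, means of 331 ± 8.0 and 564 ± 60.5 FPKM (SD, n = 2). Its groups were apart as well, with a log2 ratio of 0.77 ± 0.16 (1.70-fold). The gap between the nearest libraries was 0.58 for TMSB10 and 0.63 for TMSB4X on the log2 scale, wider than the largest difference between replicates, which was 0.23 and 0.22. The ratio of TMSB10 to TMSB4X within a library was 3.21 and 3.64 with IgG and 3.33 and 3.50 with KIAA1429, with no separation of the groups. TMSB10 to ACTB, by contrast, was 1.88 and 3.04 with IgG and 6.64 and 8.15 with KIAA1429. TMSB4X-204 held between 85.2% and 91.5% of TMSB4X and was apart and higher, with a log2 ratio of 0.81.

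PFN1, the profilin that delivers monomers to growing filament ends, measured 603 and 506 FPKM in IgG RIP, and KIAA1429 RIP gave 760 and 660 FPKM. The groups were apart, but the gap of 0.13 on the log2 scale was smaller than the 0.25 and 0.20 between replicates. Its log2 ratio was 0.36 ± 0.23. The transcripts divided differently among the libraries. PFN1-201 measured 425 and 398 FPKM in the IgG libraries and 758 and 539 FPKM in the KIAA1429 libraries. PFN1-203 measured 120 and 65.2 FPKM with IgG against 1.77 and 43.6 FPKM with KIAA1429. PFN1-202 stood at 0.444 FPKM in KIAA1429 replicate 1 and between 42.3 and 77.0 FPKM in the other libraries. PFN1-201 thus held nearly the whole gene in that single library, 99.7%, against 70.5% to 81.7% elsewhere, and its log2 ratio of 0.66 was higher than that of the gene.

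CFL1, the non-muscle cofilin that severs filaments, measured 162 and 155 FPKM in IgG RIP, and KIAA1429 RIP gave 216 and 130 FPKM. The KIAA1429 libraries lay on both sides of the IgG libraries, and the log2 ratio was 0.12 ± 0.52. CFL1-202 was likewise highest in KIAA1429 replicate 1 and lowest in KIAA1429 replicate 2, at 28.0 and 37.3 FPKM in the IgG libraries and 84.9 and 22.7 FPKM in the KIAA1429 libraries. CFL1-201 held 33.6% of the gene in KIAA1429 replicate 1 and between 51.9% and 65.2% in the other libraries.

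ARPC3, a small subunit of the Arp2/3 complex, measured 88.7 and 105 FPKM with IgG against 135 and 134 FPKM with KIAA1429. Both KIAA1429 libraries were higher, with means of 96.9 ± 11.7 and 135 ± 0.678 FPKM (SD, n = 2) and a log2 ratio of 0.48 ± 0.17. ARPC2, which with ARPC4 forms the core of the same complex, measured 149 and 114 FPKM in IgG RIP, and KIAA1429 RIP gave 146 and 140 FPKM. Its groups overlapped, with a log2 ratio of 0.12 ± 0.27. Within ARPC2, the abundant ARPC2-202 overlapped, at 129 and 88.1 FPKM in the IgG libraries and 136 and 128 FPKM in the KIAA1429 libraries. The minor ARPC2-201 was apart and lower, at 15.9 and 21.1 FPKM with IgG against 6.52 and 8.12 FPKM with KIAA1429.

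TPM1, a tropomyosin made in many spliced forms, had 17 listed transcripts, the largest number of any member. Its total was 105 and 97.6 FPKM in IgG RIP, and KIAA1429 RIP gave 103 and 232 FPKM. A single library stood apart, and the log2 ratio of 0.73 ± 0.83 was 0.03 without KIAA1429 replicate 2. Most of the excess was in TPM1-208, at 19.0 and 8.86 FPKM in IgG RIP and at 0 and 102 FPKM in KIAA1429 RIP. TPM1-220, the most abundant form by mean, was higher in both KIAA1429 libraries, at 41.2 and 15.7 FPKM in the IgG libraries and 51.9 and 89.9 FPKM in the KIAA1429 libraries. By group mean 13 of the 17 transcripts were lower while the total was higher.

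TAGLN2, a transgelin that binds filaments, measured 128 and 100 FPKM with IgG against 123 and 104 FPKM with KIAA1429. The groups overlapped and the log2 ratio was -0.01 ± 0.30. TAGLN2-203 held most of it, between 76.5% and 95.8%. Unlike the total this transcript was apart and slightly higher, at 98.2 and 93.2 FPKM with IgG against 108 and 100 FPKM with KIAA1429, a log2 ratio of 0.12. TAGLN2-202 was listed at 17.5 FPKM in IgG replicate 1 and at 0 in the other 3 libraries.

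**Figure D3:**
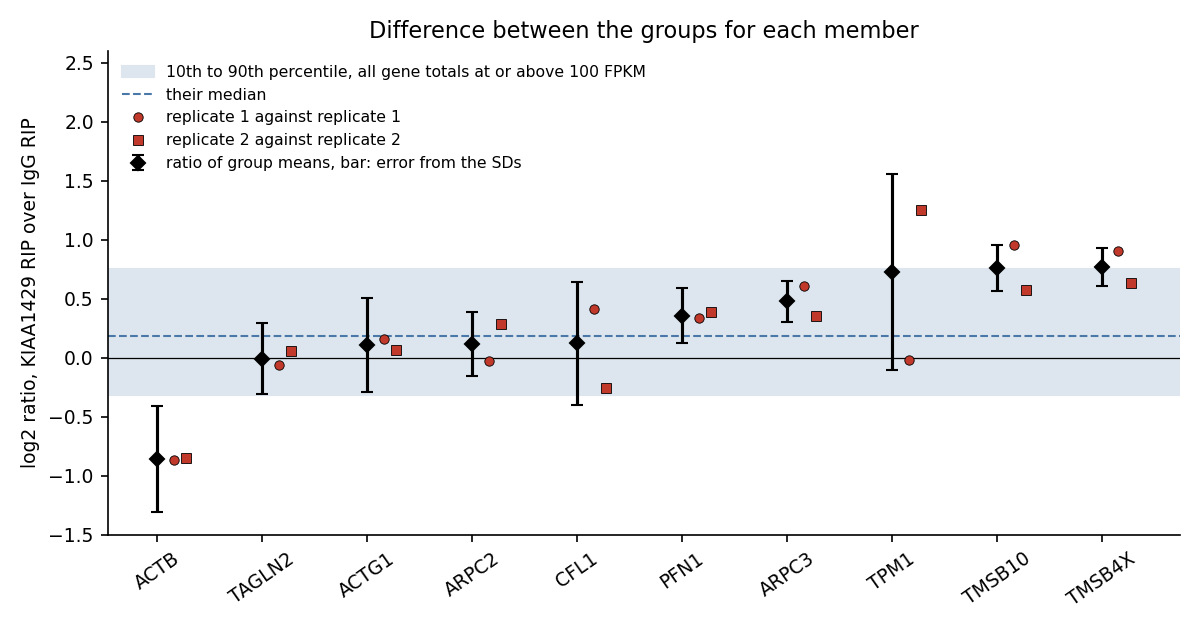
Log2 ratio of KIAA1429 RIP to IgG RIP for each member, ordered by value: black diamonds are ratios of group means with the error from the SDs, red points the ratios of same-numbered libraries, and the band the 10th to 90th percentile of the 436 gene totals at 100 FPKM or more with their median dashed. ACTB lies below the band, at -0.86, and the thymosins lie just above its upper edge of 0.75.

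Transcripts were less steady than totals. Of the 60 listed transcripts 33 were lower and 27 higher by group mean, and 18 stood at 0 in at least 1 library. Of the 53 with a mean of at least 1 FPKM, 28 were lower, against 50.1% of all 23375 transcripts tested. In those 53, 13 were apart and lower and 10 apart and higher, against 14.5% and 15.2% of all. The median difference between replicates was 0.48 on the log2 scale with IgG and 0.63 with KIAA1429 for these transcripts, and 0.25 and 0.23 for the totals of the members. Over the gene totals at 100 FPKM or more it was 0.49 and 0.33.

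**Figure D4:**
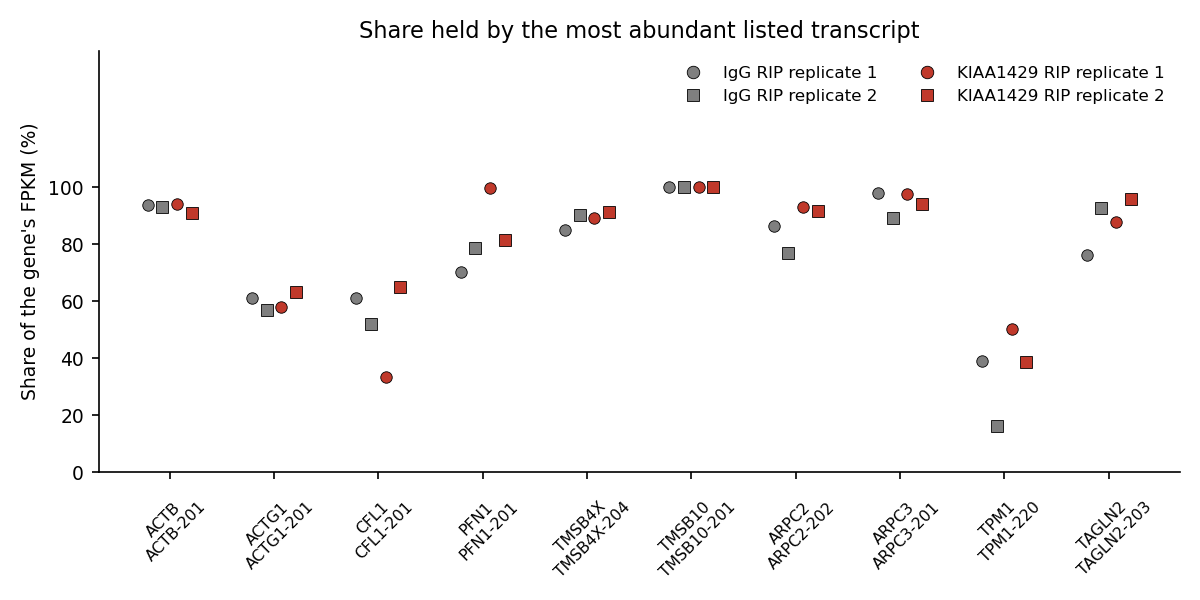
Share of the gene's FPKM, in percent, held by its most abundant listed transcript in each library (grey IgG RIP, red KIAA1429 RIP, circles replicate 1, squares replicate 2). The share is above 90% in every library for ACTB, is 100% for TMSB10 with its single transcript, and differs most between libraries for TPM1, CFL1 and PFN1.

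Transcript length moved with these differences. Lengths are those of the Ensembl canonical transcripts in GENCODE release 44 mapped to GRCh37. For ACTG1 and TPM1 these are the minor ACTG1-206 and TPM1-207, with 0.64% and 0.57% of the gene's mean FPKM. The canonical ACTB transcript is not among the listed ones. The lengths given for these members need not be those of their abundant forms. The 4 members that were apart and higher are the 4 shortest: TMSB10 with 461 bases, TMSB4X with 622, PFN1 with 807 and ARPC3 with 946. The other 6 run from 1217 bases for TPM1 to 1919 for ACTG1, and ACTB has 1812. Across genes, which are not independent replicates and share the same 4 libraries, Spearman's rho between length and log2 ratio was -0.60 over 389 gene totals at 100 FPKM or more, and -0.23 over 10386 gene totals. At 100 FPKM or more, the median log2 ratio was 0.69 over 20 genes of up to 500 bases, 0.53 over 93 genes up to 1000 bases and 0.19 over 97 genes up to 2000 bases. It was -0.11 over the 73 genes longer than 4000 bases. Many of the genes of up to 1000 bases encode ribosomal proteins. Among ribosomal protein genes with longer canonical transcripts, RPL10 (2163 bases) had a log2 ratio of 1.02 and RPL37A (2992 bases) 0.70, but RPL23 (2706 bases) -0.14. TMSB10 was 0.07 above the median of its length range and ARPC3 0.06 below that of its own, and TMSB4X was 0.24 above and PFN1 0.18 below. Within its range of 1000 to 2000 bases ACTB was 1.05 below the median, with 1 gene lower and 95 higher, and ACTG1 was 0.08 below the median. The set was chosen because ACTB was low in this contrast, so nothing is read from its place in the range. Length was not told apart from gene class here, and the part of either in the members' differences was not tested.

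The m6A mark is often found at the A of the letters GGAC, which were counted on the sense strand of the canonical transcripts. For ACTB, ACTG1 and TPM1 the canonical transcripts are not the abundant listed forms. The median over 10458 tested genes was 3.58 matches per kilobase, and 0.470% of genes held none. PFN1 held 7 matches, 8.67 per kilobase, and ACTB held 8, 4.42 per kilobase, of which 6 were in coding sequence. ACTG1 held 10, 5.21 per kilobase. TMSB10 held 3, 6.51 per kilobase, and TMSB4X held 1, 1.61 per kilobase, all after the stop codon. ARPC3 held 6.34 per kilobase, CFL1 5.62, TAGLN2 5.09, TPM1 2.47 and ARPC2 2.13. Of the 4 members that were apart and higher, PFN1, TMSB10 and ARPC3 thus had the highest densities of the set and TMSB4X the lowest. A match is a run of letters and not a measured methylation site. These windows show the last coding match of the actins and of PFN1 and the first match after the stop codon of the thymosins, with GGAC in capitals.
ACTB: agtgtgacgtGGACatccgcaaag
ACTG1: agtgtgacgtGGACatccgcaaag
PFN1: cggtgatccgGGACtcactgctgc
TMSB4X: aagtggggtgGGACgacagtgaaa
TMSB10: cctgcaagatGGACacgagccaca
They lie at chr7:5567745-5567768, chr17:79478063-79478086 and chr17:4850010-4850033 on the minus strand, and at chrX:12995178-12995201 and chr2:85133613-85133636 on the plus strand of GRCh37. The actin windows are identical, so a read covering them alone fits both genes.

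Further genes of actin dynamics gave a frame for the members. Of 149 genes in 7 lists, 125 were listed and 120 reached a mean of 1 FPKM. By group mean 59 were lower and 61 higher, and their median log2 ratio was 0.01. Groups were apart and lower for 16 (13.3%) and apart and higher for 23 (19.2%), near the 15.2% and 16.6% of all gene totals. By limma's test with Benjamini-Hochberg adjustment 0 of the 120 passed, with a lowest adjusted p of 0.885. At an unadjusted p under 0.05 with no limit on the fold, 6 were higher and 2 lower. The unadjusted counts over all features given above also needed a log2 fold change beyond 1, so these counts cannot be set against them. The genes named here are the 3 most abundant of a list.

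Among 19 other genes of monomer binding and turnover 8 were lower and 11 higher by group mean. The coronin CORO1C and the cyclase-associated protein CAP1 overlapped between the groups, with log2 ratios of -0.19 and 0.12. PFN2, the second profilin, was apart and higher, at 67.4 and 61.5 FPKM in IgG RIP, and KIAA1429 RIP gave 89.0 and 132 FPKM, an adjusted p of 0.997 by limma. Among 14 capping and severing genes 6 were lower and 8 higher. CAPZB and CAPZA1, subunits of the capping protein, overlapped, with log2 ratios of -0.01 and 0.35. CAPG was apart and higher, at 51.3 and 62.1 FPKM in the IgG libraries and 85.0 and 126 FPKM in the KIAA1429 libraries, with an adjusted p of 0.997 by limma. Among 38 genes that bind or crosslink filaments 17 were lower and 21 higher. MYH9, a heavy chain of non-muscle myosin, and the crosslinker FLNA overlapped, with log2 ratios of -0.11 for both. MYL6, a light chain of that myosin, was apart and higher, at 136 and 141 FPKM with IgG against 213 and 202 FPKM with KIAA1429, with an adjusted p of 0.997 by limma.

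In the list of the Arp2/3 complex and its activators 12 genes were lower and 12 higher. BRK1, a subunit of the WAVE complex, and ACTR2 overlapped, with log2 ratios of 0.02 and 0.37. ARPC1A, another Arp2/3 subunit, was apart and higher, at 100 and 141 FPKM in the IgG libraries and 146 and 145 FPKM in the KIAA1429 libraries. Of the 11 formins, which nucleate straight filaments, 8 were lower by group mean, against 49.4% of all gene totals. FMNL2 was the single one apart and lower, with a log2 ratio of -0.22, and 2 were apart and higher. The formins FMN2 and DIAPH1 overlapped, with log2 ratios of -0.21 and -0.64. Among 8 other actins and actin-related genes 1 was apart and lower and 0 apart and higher, and among 7 genes of the SRF axis, which drives actin gene transcription, 0 and 1.

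The genes whose pattern over the 4 libraries was most like that of ACTB were sought among the other 435 gene totals at 100 FPKM or more, by the Euclidean distance between log2 values centred on each gene's mean. The nearest was KPNB1, an importin of nuclear transport, at a distance of 0.16, with 153 and 128 FPKM in IgG RIP, and KIAA1429 RIP gave 87.3 and 63.1 FPKM. NF2, which encodes merlin, followed at 0.34, then SNHG16 at 0.51, the alpha-tubulin TUBA1B at 0.51 and PRRC2A at 0.53. The distance uses the same values as the contrast, so a lower level in KIAA1429 RIP was built into the search. KPNB1, SNHG16 and PRRC2A were apart and lower, while NF2 and TUBA1B were lower by group mean with overlapping groups. No member was among them.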

How the data were processed

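RIP-seq libraries of HCCLM3 cells (2 KIAA1429 RIP, 2 IgG RIP, grouped by the labels) were analysed from the transcript tables of the authors, which hold deposited FPKM values. The study's methods describe poly(A) selection and alignment to GRCh37/hg19 with HISAT2, whereas the submitters' processing notes name Bowtie2 2.1.0. The tool that gave FPKM and its annotation release are not given in the sources used here. Sequencing depth is unknown, so no counting interval is given.

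Transcripts were summed per gene name. Gene totals and transcripts whose mean reached 1 FPKM were fitted with limma 3.58.1 in R 4.3.3 (eBayes with trend, two-sided, Benjamini-Hochberg) on log2(FPKM + 1), which understates changes of low genes. The study used a count test, for which FPKM do not serve. For the members, log2 ratios of group means carry the root of the summed squared SDs of the log2 values. The limma step was tested on simulated data. Other calculations used Python 3.11.15, pandas 2.3.3 and numpy 2.4.6, with figures drawn in matplotlib 3.10.9. Sequences and lengths are from GRCh37 and GENCODE release 44.

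The members and lists were chosen with earlier results of these data known. Named genes were the members, their listed near copies, the 3 most abundant genes of each list (a part of which is described), any gene called, GAPDH, and the 5 nearest to ACTB. Alternatives were other pseudocounts, filters, scalings, transcript choices, a replicate block and leaving out each library.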

Additional observations from a re-analysis of the deposited data

How the results depend on the processing

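ACTB stayed lower under each scaling, transcript choice and pairing tried (log2 ratio -1.29 to -0.86), and TMSB10, TMSB4X, ARPC3 and TPM1 stayed higher. With any 1 library left out ACTB ranged from -1.10 to -0.61. For ACTB, TMSB10, TMSB4X and ARPC3 the groups were apart, so neither pairing nor leaving out a library could change the direction. TPM1, whose groups overlapped, fell to 0.03 without KIAA1429 replicate 2. ACTG1, CFL1, PFN1, ARPC2 and TAGLN2 changed sign in at least 1 of 10 alternatives. Of 100 member log2 ratios under alternatives, 96 moved by less than the replicate error. That error is each member's own, so a wide error lets large moves pass. The fall of TPM1 from 0.73 counted among the 96, since its error was 0.83. With quantile normalization ACTG1 was -0.33, PFN1 -0.10 and TMSB4X 0.39, and 5 members were lower instead of 2, as with an equal FPKM sum, while the most abundant PFN1 transcript alone gave 0.66. Without a library, 2 to 3 members were lower and 6 to 8 were apart instead of 5. Leaving out a library cannot make groups that are apart overlap, so the count apart could only stay at 5 or rise. Median scaling shifted the groups by 0.01 on the log2 scale. The labels do not say what a shared replicate number stands for, and 2 pairs do not settle whether the numbers pair the libraries: deviations of same-numbered libraries correlated at 0.19 over gene totals and 0.03 over transcripts. With the replicate block limma called 13 gene totals, 12 higher and 1 lower, instead of 0, none of them a member, and 2 members were lower by the mean of the paired ratios, as without pairing. Other alternatives left the calls at 0. The causes of the other differences between settings were not tested. With 2 libraries a group and unknown depth, small differences cannot be resolved.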

Other observations

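Other abundant mRNAs give a scale for ACTB as a reference gene. Of 14 other reference genes 3 were lower and 11 higher by group mean, and EEF1A1, the most abundant of them, overlapped with a log2 ratio of 0.12. GAPDH, a glycolytic enzyme, measured 432 and 779 FPKM in the IgG libraries and 602 and 1076 FPKM in the KIAA1429 libraries, with overlapping groups. The ratio of ACTB to GAPDH within a library was 1.29 and 0.517 with IgG and 0.505 and 0.208 with KIAA1429. RPLP0, a ribosomal stalk protein, measured 350 and 384 FPKM with IgG against 630 and 586 FPKM with KIAA1429, an adjusted p of 0.997 by limma. Of the 11 tubulins tested, 5 were lower and 6 higher by group mean, and TUBB measured 650 and 477 FPKM in IgG RIP, and KIAA1429 RIP gave 556 and 420 FPKM.

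The members have 66 annotated copies named after them, 62 of them processed pseudogenes, and 2 were listed in the files. CFL1P1 was at 0 in 3 libraries and at 1.46 FPKM in KIAA1429 replicate 2, and PFN1P2 at 0.550 and 0.735 FPKM in IgG RIP and at 0 in both KIAA1429 libraries. Whether reads of the members were assigned to copies that are not listed was not tested.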
